A study of Mus musculus with 6 samples.

Results

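Long non-coding transcripts are RNAs that are transcribed and processed much like messenger RNA and, by definition, have no annotated protein product. Those expressed in RAW264.7 cells were taken from the deposited expression table as the rows of type ncRNA whose transcript model is at least 300 bases long and whose level was at least 3 TPM in at least 3 of the 6 libraries. Host genes of small RNAs were left out by symbol: names starting with Mir, Snor, Scarna or Snhg, and Gas5, Zfas1 and Epb41l4aos. The rule took 218 genes of the 25124 rows in the table and of its 3761 rows of type ncRNA. TPM, a read count per base of transcript scaled to the whole library, was the unit, so levels can be compared between genes. The genes were thus selected on their TPM in the same libraries that are compared below, and the levels are given as a description. Of the 218, 201 reached the threshold in both groups (at least 1 library of each), while 11 reached it in M0 alone and 6 in M2 alone, and those 17 had to differ between the groups to some degree by the way they were chosen.

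Nuclear long non-coding RNAs such as Malat1, Neat1 and Xist act as scaffolds in nuclear bodies or on chromosomes, and cytoplasmic ones such as Norad bind and hold back RNA-binding proteins. Others are known mainly for what lies in or beside them: a snoRNA or microRNA in an intron, an antisense partner, or a coding gene that starts from the same promoter region. In macrophages, antisense and intergenic transcripts near inflammatory genes have been studied as regulators of cytokine and prostaglandin programmes.

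RAW264.7 is a mouse macrophage-like line grown from a tumour. All 6 libraries came from a CTRL version of it that had received a Cas9 plasmid with no guide RNA, the counterpart of a line in which E4BP4 was knocked out, so every cell compared carries that history and no knockout was compared here. The M2 group was given IL-4 at 10 ng/ml, the cytokine that drives alternative activation of macrophages, and the M0 group was cultured without it. Both were kept in DMEM with 25 mM glucose and 10% serum and had been passaged fewer than 15 times, and each group gave 3 libraries, made from the poly(A) fraction of 200 ng RNA. The titles of all M0 libraries carry a remark that they were analysed anew, so a batch behind that remark, if there was one, cannot be told apart from the effect of IL-4. The labels do not state that libraries of a group are from different cultures. The p-values therefore reflect only how far these libraries spread, which may be technical.

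The libraries held between 15615639 and 19511192 reads, recovered from TPM and model length, and between 102731 and 127051 of them per library fell on the 218 genes. The 7 macrophage markers summed to between 2328 and 2541 TPM in M0 and between 2115 and 2222 TPM in M2. Lyz2 and Cd68 were the highest of them, while Adgre1 was low, with means of 2.73 and 6.10 TPM. Adgre1 was called higher in M2, Itgam and Ptprc were called lower and the others were not called. No list of T cell, fibroblast, endothelial, epithelial or mast cell markers exceeded 1.02 TPM in any library, and Cd3g, Krt8 and Mcpt4 were at 0 in all 6. M2 replicate 3 stood apart in its recovered reads, with a chi-square of 21.1 for each degree of freedom against each of the other M2 libraries. The other same-group pairs lay between 2.26 and 6.11. M2 replicate 3 also stood apart in its relation to transcript length. Its log2(TPM + 1) fell by 0.0508 per doubling of length against the mean of the M2 libraries. The other libraries, each set against the mean of its own group, lay between -0.0211 and 0.0388. Deviations from a group mean offset each other, so those of the M2 libraries are not independent. Values without M2 replicate 3 are given below for the counts of the set and for some genes. In bulk RNA, a smaller share of cells expressing a gene and less RNA per cell cannot be told apart.

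The long non-coding transcripts formed a small, uneven part of the RNA. Their TPM summed to between 2975 and 3112 per library, which was 0.532% to 0.560% of the TPM in the table. The median gene of the set had a mean level of 6.06 TPM over the 6 libraries (range 2.31 to 353), against 18.1 TPM for the 10404 protein-coding genes tested. Only 66 of the 218 reached a mean of 10 TPM and 3 reached 100 TPM, namely Eyelinc18, AI662270 and Malat1, which together held 23.4% of the set's TPM. The 10 most abundant held 37.2%.

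Between M0 and M2, 39 of the 218 genes rose and 47 fell at an adjusted p under 0.05, in limma on log2(TPM + 1) fitted to all 11202 tested genes with Benjamini-Hochberg adjustment. Of all tested genes 20.1% were called higher and 23.7% lower (43.7% in all), and the set's shares were 17.9%, 21.6% and 39.4%. Of the 17 genes chosen through 1 group alone, 16 were called. Among the 201 genes that reached the threshold in both groups, 34 rose and 36 fell, or 70 in all (34.8%). The balance of rises and falls moved with the scaling: median-ratio scaling gave 46 higher and 46 lower in the set (2638 and 2552 over all genes), and limma on the authors' deposited values gave 45 and 38 (2748 and 2601). Without M2 replicate 3, 50 genes of the set rose and 54 fell (2869 and 2825 over all genes). The set's median log2 fold change was then 0.01. With all libraries it was -0.05, and that of all tested genes was -0.03. At matched levels, mean TPM between 3 and 10, 15.1% of 146 long non-coding genes were higher and 22.6% lower, beside 15.4% and 27.3% of 2399 protein-coding genes. Changes of the mean TPM of at least 2-fold that were also called numbered 11, or 5.05%, beside 4.64% of all tested genes. Of these 11, 5 rose (AI506816, Dancr, Map2k3os, Gm20319 and D5Ertd605e) while 6 fell. Among the 201 genes that reached the threshold in both groups, such changes numbered 6, or 2.99%. A log2 change of at least 1 on the log2(TPM + 1) scale was called for 4 genes, Prr33, Neat1, Peg13 and Gm19582, all of which fell, and for 2.45% of all tested genes. That direction belongs to the scale: with a pseudocount of 0.1, which compresses low levels less, the 4 became 11, with 5 higher and 6 lower, and the fold changes and adjusted p-values in the authors' deposited table put 9 past the same size, 5 higher and 4 lower. The libraries of the groups did not overlap for 104 of the 218, or 47.7%, the 17 that were separate by the rule included, and for 55.9% of all tested genes. Among the 201 it was 87, or 43.3%.

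**Figure D1:**
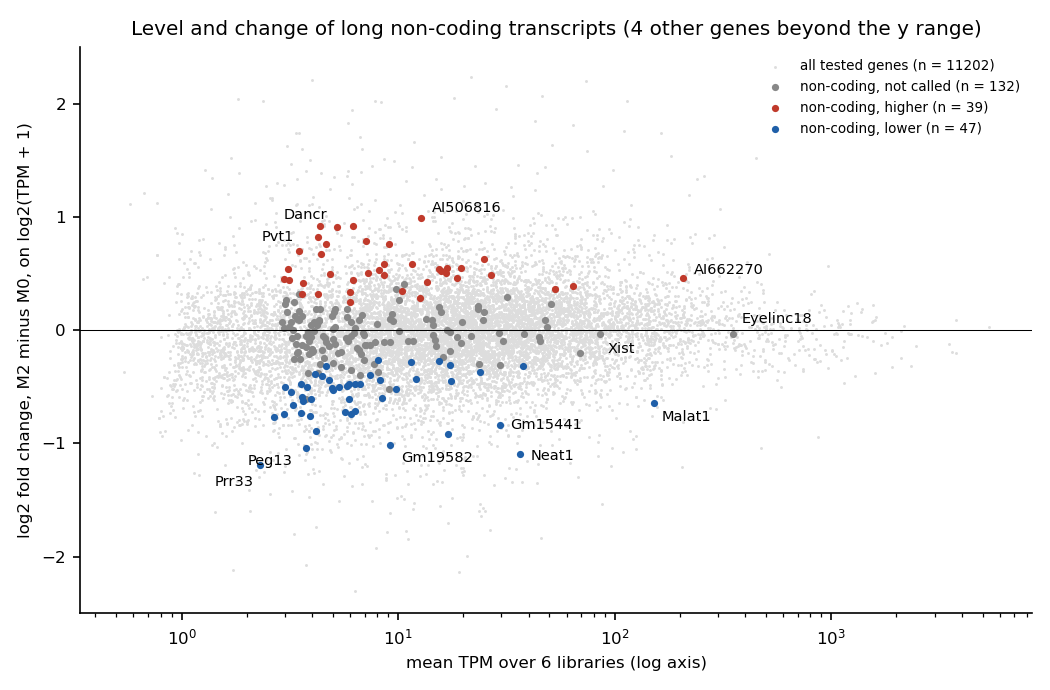
Mean TPM over 6 libraries (log axis) against the log2 fold change, M2 minus M0, for all 11202 tested genes in grey and the 218 long non-coding genes in colour by call; 4 other genes lie beyond the plotted y range of 2.5. The 39 higher and 47 lower genes sit within the cloud of all genes, with Malat1, AI662270 and Eyelinc18 at the abundant end and Neat1 the lowest of the set's genes above 20 TPM.

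The RNAs of nuclear bodies fell. Malat1, which resides in nuclear speckles beside splicing factors, lies at chr19:5795690-5802672 on the minus strand (mm10, a lincRNA by GENCODE). It measured 225, 152 and 178 TPM in M0 and 110, 115 and 126 TPM in M2. Every M2 library lay below every M0 library, and M0 replicate 1 was the highest. Its log2 fold change was -0.64 (SE 0.12, limma, adjusted p = 0.00346), and it was called in all 12 alternative fits.

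Neat1 is the architectural RNA of paraspeckles, nuclear bodies that form on its long isoform, and lies close to Malat1 at chr19:5842296-5845480 on the minus strand. Its deposited model of 3184 bases covers the end from which both isoforms start, so the value does not separate them. It measured 52.4, 48.4 and 48.8 TPM in M0 and 26.2, 24.7 and 18.5 TPM in M2. The groups did not overlap. M0 was tight, while M2 was wider, with M2 replicate 3 the lowest library. The log2 fold change of -1.09 (SE 0.11, limma, adjusted p = 1.33e-04) was the second largest fall of the set and held in all 12 alternatives. Malat1 and the long Neat1 isoform end in a triple helix in place of a poly(A) tail, and these libraries were selected for poly(A) RNA. Frmd8, the coding gene whose start is nearest to Neat1, fell by 0.48 on the log2 scale (limma, adjusted p = 9.43e-04). Of the 16 listed genes for proteins of paraspeckles and speckles, 7 rose and 1 fell, beside 20.1% higher and 23.7% lower among all tested genes, and the median log2 fold change was 0.03. Nono, a core paraspeckle protein, was at 149 ± 1.67 and 152 ± 12.9 TPM (SD, n = 3) and was not called (limma, adjusted p = 0.792). Sfpq, another core protein, rose from 151 ± 5.91 to 195 ± 2.37 TPM (SD, n = 3), and Pspc1, a partner of both, from 13.8 ± 0.430 to 19.6 ± 1.05 TPM. The splicing factor Srsf1 rose from 126 ± 3.64 to 174 ± 10.8 TPM. Of the 7 genes of the 7SK particle, which holds the elongation kinase inactive, Larp7 rose while Hexim1, Hexim2 and Cdk9 fell (14.3% and 42.9%, beside 20.1% and 23.7% of all tested genes). The call of Hexim2 was weak, with a limma adjusted p of 0.0426 that reached 0.163 over its alternatives and a call in 6 of 12.

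Among RNAs of the X chromosome, Ftx rose and Xist did not pass the test. Xist, which coats and silences an X chromosome, lies at chrX:103460373-103483233 on the minus strand and was the fourth most abundant gene of the set. It measured 82.5, 91.4 and 80.3 TPM in M0 and 95.8, 105 and 56.0 TPM in M2. The first pair of M2 libraries lay above all of M0 and M2 replicate 3 lay below, and the log2 fold change over all libraries was -0.03 (SE 0.20, limma, adjusted p = 0.908). Without M2 replicate 3 it was 0.24 (limma, adjusted p = 0.0176), with adjusted p between 0.0176 and 0.997 over its alternatives. At 17911 bases Xist has the longest model of the set, and that library is the one with the length trend. The part of the trend in this value was not tested. Tsix, the antisense RNA that opposes Xist, overlaps it on the other strand at chrX:103431517-103484957. It measured 23.8, 27.9 and 24.5 TPM in M0 and 27.8, 26.9 and 11.2 TPM in M2. M2 replicate 3 was again the lowest library, while the other M2 libraries lay within the range of M0. Its log2 fold change was -0.30 (limma, adjusted p = 0.417), and 0.11 without M2 replicate 3 (adjusted p = 0.262, between 0.183 and 0.612 over the alternatives). The kit does not mark strand, so reads from the stretch that Xist and Tsix share cannot be assigned to either.

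Ftx, an activator of Xist transcription that also carries microRNAs, measured 2.43, 2.48 and 2.17 TPM in M0 and 3.60, 3.69 and 3.51 TPM in M2. All 3 M2 libraries lay above M0, M2 replicate 3 included, and the log2 fold change was 0.45 (SE 0.09, limma, adjusted p = 0.00425), called in all 12 alternatives. Ftx reached 3 TPM in M2 alone, so part of that difference follows from how the genes were chosen. Firre, an RNA that anchors chromatin around its own locus, had a level of 4.86 ± 0.319 TPM in M0 and 3.81 ± 0.831 TPM in M2 (SD, n = 3) and missed the threshold (log2 fold change -0.30, limma, adjusted p = 0.102). Jpx, another activator of Xist, stayed under the rule's threshold at 0.822 and 0.705 TPM. Of the 9 genes of the set on the X chromosome, 3 were called (33.3%, beside 43.7% of all tested genes), all higher: Ftx, G530011O06Rik and 9530027J09Rik.

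None of the cytoplasmic regulators Norad, Oip5os1 and Tug1 was called in limma on log2(TPM + 1) with all libraries. 2900097C17Rik, the mouse Norad, binds Pumilio proteins and keeps them from their target messages. It measured 11.1, 15.7 and 15.0 TPM in M0 and 13.97, 15.0 and 15.2 TPM in M2. The groups overlapped, and the log2 fold change was 0.09 (SE 0.12, limma, adjusted p = 0.575). Its GENCODE transcript of 4915 bases holds 11 copies of the Pumilio element TGTANATA on the transcript strand, the most of the 184 transcripts of the set that could be read. Xist came next with 6, in a far longer transcript, and 13.6% of the 184 held at least 1. Over 51.6% of the Norad transcript, another locus (Gm7292) matches it at 95% identity or more, so its reads could be split or dropped in the authors' counting. Oip5os1 (Cyrano), known for directing the decay of the microRNA miR-7, measured 32.9, 32.1 and 28.9 TPM in M0 and 33.4, 30.03 and 24.9 TPM in M2, with overlapping groups (log2 fold change -0.09, limma, adjusted p = 0.498).

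Tug1, a broadly expressed RNA that starts within 623 bases of Morc2a on the other strand, measured 20.9, 22.1 and 21.7 TPM in M0 and 27.5, 28.4 and 20.4 TPM in M2. M2 replicate 3 was the low one, below all of M0. The log2 fold change was 0.21 over all libraries (SE 0.11, limma, adjusted p = 0.158) and 0.36 without M2 replicate 3 (adjusted p = 9.17e-04, between 9.17e-04 and 0.402 over its alternatives). With all libraries it was called in limma-voom on recovered reads (adjusted p = 0.0437), in limma on the authors' values (adjusted p = 0.0259), and in the authors' deposited table at a log2 fold change of 0.28 and an adjusted p of 0.0126. Tug1 too has a long model, of 4727 bases, and the part of the length trend in its value was not tested.

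Peg13, an imprinted RNA expressed from the paternal copy inside the Trappc9 gene, lies at chr15:72805602-72810324 on the minus strand (sense intronic by GENCODE). It measured 5.33, 5.30 and 5.61 TPM in M0 and 2.31, 2.52 and 1.58 TPM in M2. The groups lay far apart, with a log2 fold change of -1.04 (SE 0.13, limma, adjusted p = 2.78e-04), called in all 12 alternatives. The threshold was reached in M0 alone. Trappc9, in whose intron it lies on the same strand, fell less, from a mean of 6.89 to 4.69 TPM (log2 fold change -0.49, limma, adjusted p = 0.0136). Other imprinted long RNAs, among them H19, Meg3, Rian, Airn and Kcnq1ot1, were at or near 0 TPM and outside the set.

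Pvt1, the RNA gene beside the Myc oncogene that is often gained together with it in tumours, lies at chr15:62037986-62250976 on the plus strand. It measured 2.69, 2.28 and 2.29 TPM in M0 and 4.23, 4.85 and 4.57 TPM in M2. The groups did not overlap, and the log2 fold change was 0.70 (SE 0.10, limma, adjusted p = 6.30e-04), although Pvt1 reached 3 TPM in M2 alone. Myc, with its start 52645 bases away, rose from a mean of 6.43 to 29.8 TPM (log2 fold change 2.05, limma, adjusted p = 9.07e-07). Lockd, which lies downstream of the cell cycle inhibitor gene Cdkn1b, measured 23.7, 19.2 and 18.6 TPM in M0 and 16.6, 12.02 and 15.8 TPM in M2. The groups were separate but close, with a log2 fold change of -0.45 (SE 0.13, limma, adjusted p = 0.0206). Without M0 replicate 1 the adjusted p was 0.0798, and over all alternatives it lay between 0.00736 and 0.0798. Cdkn1b itself fell from 43.7 to 33.2 TPM. Lncpint, a target of p53, had a level of 4.68 ± 1.22 TPM in M0 and 2.83 ± 1.27 TPM in M2 (SD, n = 3) and missed the threshold with all libraries (log2 fold change -0.61, limma, adjusted p = 0.0829). Without M2 replicate 1 it was -0.81 (adjusted p = 0.0343, between 0.00548 and 0.240 over the alternatives).

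Ptgs2os2, known as lincRNA-Cox2 and induced in macrophages by Toll-like receptor ligands, lies at chr1:150159043-150164948 on the minus strand. It measured 4.99, 5.75 and 4.94 TPM in M0 and 3.29, 3.77 and 4.09 TPM in M2. All M2 libraries lay below M0, with a log2 fold change of -0.40 (SE 0.10, limma, adjusted p = 0.0126). Without M0 replicate 2 the adjusted p was 0.0606, the highest of its alternatives, and the lowest was 0.00451. Its neighbour Ptgs2, which encodes the inducible cyclooxygenase, was measured at 11.1 and 10.2 TPM and was not called. Morrbid, which restrains the pro-death gene Bcl2l11 in short-lived myeloid cells, measured 6.07, 4.35 and 5.50 TPM in M0 and 5.71, 3.23 and 5.79 TPM in M2. The groups overlapped fully (log2 fold change -0.12, limma, adjusted p = 0.639). AI662270, the second most abundant gene of the set, lies in the cluster of Schlafen genes at chr11:83223576-83226584 on the plus strand. It measured 174, 170 and 178 TPM in M0 and 220, 229 and 271 TPM in M2. Every M2 library lay above M0, and the log2 fold change was 0.46 (SE 0.08, limma, adjusted p = 0.00178). Slfn3, with the nearest coding start, was not called.

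**Figure D2:**
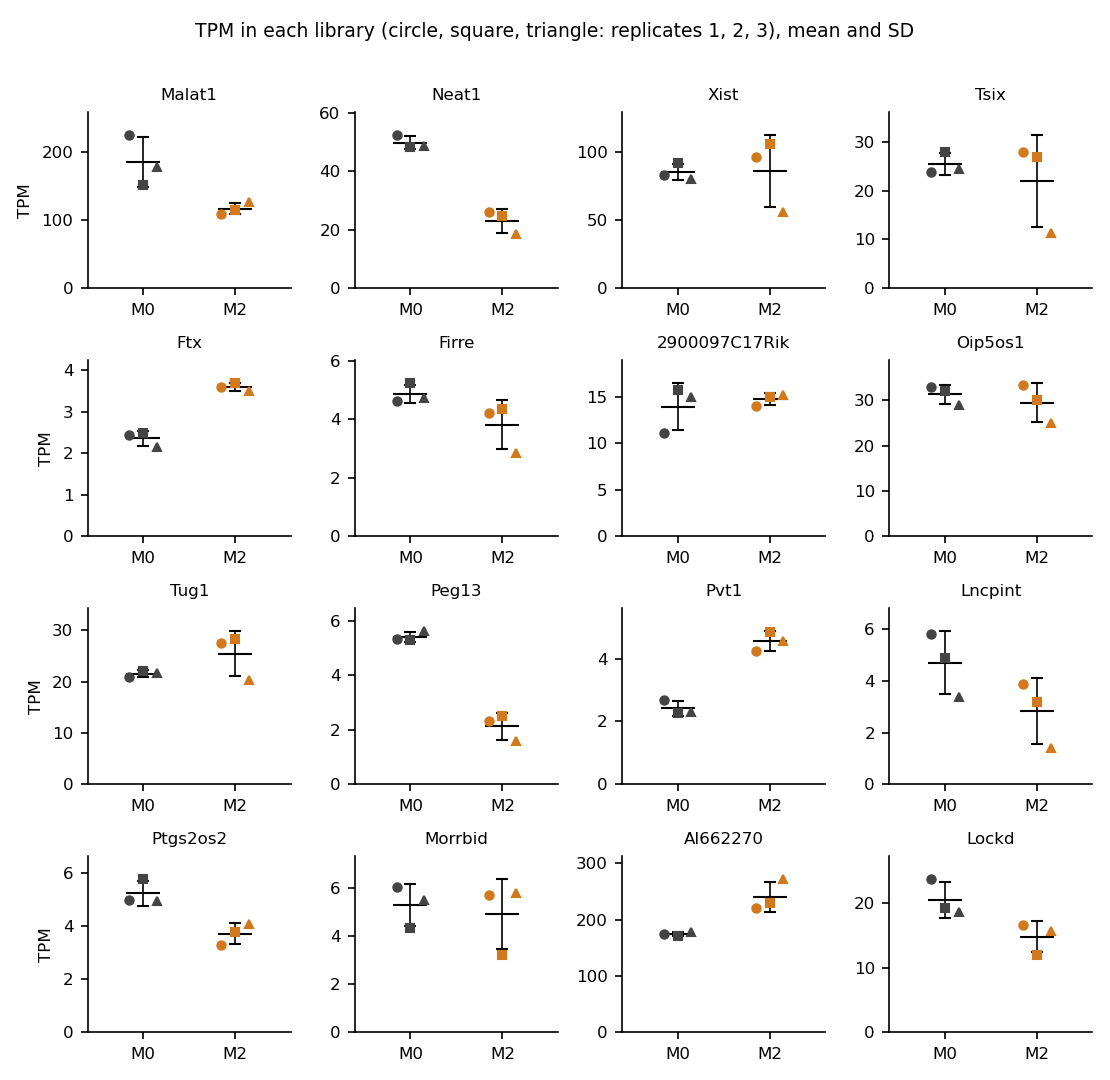
TPM in each library for 16 long non-coding genes, with circles, squares and triangles for replicates 1, 2 and 3, and horizontal bars and whiskers for the mean and SD of 3 libraries; each panel's y axis starts at 0. Malat1, Neat1 and Peg13 are lower in M2 in every library, Ftx, Pvt1 and AI662270 are higher, and the triangle of M2 sits low for Xist, Tsix and Tug1.

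Genes that hold a snoRNA were frequent among the largest rises, a pattern noticed after the values were seen. In all, 7 of the 218 hold an annotated snoRNA on their own strand in spite of the exclusion by symbol, and 5 of them rose while 2 were not called (20.1% of all tested genes rose). Of the 8 largest rises of the set, 4 are in this group. Most snoRNAs of mammals are cut from introns of their hosts, and they guide chemical modification of ribosomal and other RNAs, box C/D ones methylation and box H/ACA ones pseudouridylation. Libraries of poly(A) RNA are not made to measure mature snoRNAs, and the snoRNA levels are not known here.

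The largest rise of the set was that of AI506816, at chr5:23692261-23712667 on the minus strand, which measured 7.25, 8.79 and 8.59 TPM in M0 and 16.4, 19.8 and 15.8 TPM in M2. The groups did not overlap, and the log2 fold change was 0.99 (SE 0.11, limma, adjusted p = 1.50e-04). 2700038G22Rik, at chr5:23850597-23855033 on the plus strand of the same chromosome, measured 4.67, 5.39 and 4.76 TPM in M0 and 9.43, 8.78 and 9.56 TPM in M2. Its groups were also apart, with a log2 fold change of 0.79 (SE 0.09, limma, adjusted p = 1.77e-04). These genes are copies of each other in part. Their GENCODE transcripts match at 95.4% identity over 347 aligned columns, which is the whole GENCODE transcript of AI506816 at 345 bases and the start of the 1375 bases of 2700038G22Rik. The deposited model of AI506816 is longer, at 2426 bases, and its other exons were not searched. The sources used here do not tell how reads from the shared stretch were assigned, so the rises are not independent and either may hold reads of the other. Each hosts a copy of the same snoRNA of 71 bases, annotated as Snord93 in 2700038G22Rik and under the name Mir3096 in AI506816. They differ by the substitution T29A, given from Snord93 to the other copy and counted from the snoRNA's 5′ end. Both are shown, from GENCODE vM21 (GRCm38), with that base in capitals:
Snord93: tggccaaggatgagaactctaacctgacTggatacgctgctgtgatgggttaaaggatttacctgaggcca
Mir3096: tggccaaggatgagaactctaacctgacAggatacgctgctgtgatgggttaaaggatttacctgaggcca

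The promoters of this pair are copies as well. Of the 300 bases around each start (250 before and 50 after, RefSeq, GRCm38.p6), 206 aligned without gaps at 97.1% identity, with 6 mismatches. Capitals mark mismatches and all bases outside the aligned stretch. The windows are shown because the genes moved together, first chr5:23712618-23712917 on the minus strand and then chr5:23850347-23850646 on the plus strand:
AI506816: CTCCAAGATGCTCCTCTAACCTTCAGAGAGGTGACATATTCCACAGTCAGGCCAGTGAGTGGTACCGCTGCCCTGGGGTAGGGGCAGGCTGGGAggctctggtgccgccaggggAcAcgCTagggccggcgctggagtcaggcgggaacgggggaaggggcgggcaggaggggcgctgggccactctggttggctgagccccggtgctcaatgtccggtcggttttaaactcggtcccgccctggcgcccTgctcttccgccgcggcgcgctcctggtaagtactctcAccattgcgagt
2700038G22Rik: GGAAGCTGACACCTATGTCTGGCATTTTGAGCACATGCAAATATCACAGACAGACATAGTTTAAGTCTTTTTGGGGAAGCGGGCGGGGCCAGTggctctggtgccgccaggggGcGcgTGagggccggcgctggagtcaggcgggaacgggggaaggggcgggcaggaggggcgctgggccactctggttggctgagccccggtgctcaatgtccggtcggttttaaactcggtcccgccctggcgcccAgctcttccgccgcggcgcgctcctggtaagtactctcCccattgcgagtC
The part of each window outside the aligned stretch was not compared base by base. The neighbours of the pair went separate ways: Pus7, which encodes a pseudouridine synthase and has the coding start nearest to AI506816 at 71044 bases, rose from 7.22 to 14.4 TPM (log2 fold change 0.91, limma, adjusted p = 4.83e-05), and Tomm7, which encodes a mitochondrial import subunit and starts 6452 bases from 2700038G22Rik, was not called (log2 fold change -0.16).

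Dancr, known for holding progenitor cells in an undifferentiated state, lies at chr5:74093060-74094337 on the plus strand and hosts Snora26. It measured 3.34, 3.25 and 3.33 TPM in M0 and 6.68, 5.98 and 8.88 TPM in M2. M0 was uniform and every M2 library lay well above it, with a log2 fold change of 0.91 (SE 0.13, limma, adjusted p = 6.47e-04). 5730408K05Rik lies at chr19:8888387-8888770 on the minus strand. Its model of 383 bases is as long as its span, so it has no intron, and it includes the 148 bases of Snora57, whose reads would count in this row. It measured 5.80, 7.06 and 6.31 TPM in M0 and 8.59, 13.4 and 13.2 TPM in M2. The groups did not overlap although M2 replicate 1 was close to M0 (log2 fold change 0.76, limma, adjusted p = 0.00422). 1110038B12Rik, sixth in abundance and host of Snord52, measured 60.5, 51.9 and 53.4 TPM in M0 and 74.7, 73.0 and 70.2 TPM in M2. This is a smaller but clean rise, with a log2 fold change of 0.39 (SE 0.07, limma, adjusted p = 0.00196). The box H/ACA snoRNAs of the first pair are shown with their ACA box in capitals, and the box C/D snoRNA with its C and D boxes in capitals (GENCODE vM21):
Snora26: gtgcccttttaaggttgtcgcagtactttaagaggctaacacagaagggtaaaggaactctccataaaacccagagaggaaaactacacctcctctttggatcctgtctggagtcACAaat
Snora57: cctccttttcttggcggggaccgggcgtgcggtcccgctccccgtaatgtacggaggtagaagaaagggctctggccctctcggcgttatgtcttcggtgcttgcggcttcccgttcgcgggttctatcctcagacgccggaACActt
Snord52: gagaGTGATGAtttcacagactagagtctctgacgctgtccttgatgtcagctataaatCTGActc
Not every host rose. 2410006H16Rik, which carries Snord49a, Snord49b and Snord65, measured 38.4, 27.8 and 31.6 TPM in M0 and 28.3, 19.7 and 31.4 TPM in M2, with overlapping groups and a log2 fold change of -0.31 (limma, adjusted p = 0.170). 2900076A07Rik was measured at 4.28 ± 0.586 and 3.73 ± 0.589 TPM (SD, n = 3) and was not called. Among the listed proteins that bind H/ACA RNAs and telomerase RNA, 3 of 5 tested rose (Dkc1, Nhp2 and Gar1, or 60.0% beside 20.1% of all tested genes), with a median log2 fold change of 0.37. The pseudouridine synthase Dkc1 went from 180 ± 8.41 to 232 ± 14.8 TPM and its partner Nhp2 from 177 ± 10.6 to 251 ± 22.7 TPM (SD, n = 3).

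The other 4 of the 8 largest rises carry no annotated snoRNA. Map2k3os, at chr11:60920941-60931867 on the minus strand, starts 187 bases from Map2k3, the kinase gene of the p38 pathway, and runs away from it. It measured 2.76, 2.61 and 2.75 TPM in M0 and 6.53, 5.09 and 6.498 TPM in M2. The groups lay far apart (log2 fold change 0.92, SE 0.11, limma, adjusted p = 2.41e-04), and the threshold was reached in M2 alone. Map2k3 rose from 46.6 to 55.7 TPM, a log2 fold change of 0.25. Gm20319, at chr16:26714682-26755502 on the minus strand, is antisense to Il1rap, the accessory chain of the IL-1 and IL-33 receptors. It measured 2.81, 4.38 and 4.87 TPM in M0 and 8.55, 10.0 and 6.67 TPM in M2. The groups did not overlap but both were wide (log2 fold change 0.92, SE 0.18, limma, adjusted p = 0.00365). Il1rap rose from 5.62 to 12.2 TPM, and 45.8% of the exonic bases of Gm20319 lie in its exons, so without strand their reads cannot be told apart there. D5Ertd605e, which overlaps no other model, measured 2.76, 3.18 and 2.495 TPM in M0 and 5.85, 5.39 and 5.97 TPM in M2, with a clear gap between the groups (log2 fold change 0.82, limma, adjusted p = 2.89e-04). D030028A08Rik, which overlaps Sp2 on the other strand, measured 3.36, 3.002 and 3.22 TPM in M0 and 6.65, 6.09 and 5.58 TPM in M2 (log2 fold change 0.76, limma, adjusted p = 3.37e-04).

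Prr33 had the largest fall of the set. At chr7:142491080-142506771 on the minus strand, against Tnnt3 and Lsp1 on the other strand, it measured 3.68, 3.36 and 3.67 TPM in M0 and 1.61, 0.948 and 0.564 TPM in M2. M2 was low in every library (log2 fold change -1.19, SE 0.17, limma, adjusted p = 6.92e-04), and the gene reached 3 TPM in M0 alone. Lsp1, a leukocyte actin-binding protein gene, fell from 392 to 256 TPM, and none of the exonic bases of Prr33 lie in coding exons. Dubr, known from muscle cell differentiation, lies at chr16:50726751-50732773 on the minus strand and measured 5.64, 6.04 and 5.45 TPM in M0 and 2.85, 2.67 and 2.35 TPM in M2. Both groups were tight and apart (log2 fold change -0.89, SE 0.10, limma, adjusted p = 1.51e-04), with the threshold again reached in M0 alone. Gm6634, an isolated locus whose nearest tested coding start is 1085236 bases away, measured 3.67, 3.56 and 3.56 TPM in M0 and 1.33, 1.99 and 1.85 TPM in M2 (log2 fold change -0.76, limma, adjusted p = 9.53e-04, threshold reached in M0 alone).

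The other large falls shared sequence with a coding gene that fell too. Gm19582, at chr1:87853347-87854299 on the minus strand, is antisense to Dgkd, a diacylglycerol kinase gene. It measured 11.1, 12.03 and 14.7 TPM in M0 and 5.92, 7.12 and 4.32 TPM in M2, without overlap (log2 fold change -1.02, SE 0.16, limma, adjusted p = 0.00105). Dgkd fell from 148 to 70.3 TPM, and 13.1% of the exonic bases of Gm19582 lie in coding exons. Gm15441, at chr3:96555768-96566801 on the minus strand, is antisense to Txnip, the thioredoxin inhibitor that responds to glucose. It measured 37.3, 39.2 and 37.8 TPM in M0 and 22.3, 22.4 and 18.2 TPM in M2, again without overlap (log2 fold change -0.84, SE 0.08, limma, adjusted p = 1.07e-04). Txnip fell from 102 to 62.5 TPM, with 36.7% of the exonic bases of Gm15441 in coding exons. Gm20605 joins Lrch4 and Sap25 on their own strand, with 94.8% of its exonic bases in their exons. It fell from 22.6 ± 1.21 to 11.5 ± 1.07 TPM (SD, n = 3, log2 fold change -0.92, limma, adjusted p = 6.28e-05) and Lrch4 from 36.1 to 17.5 TPM, so the reads of this row cannot be told apart from theirs.

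**Figure D3:**
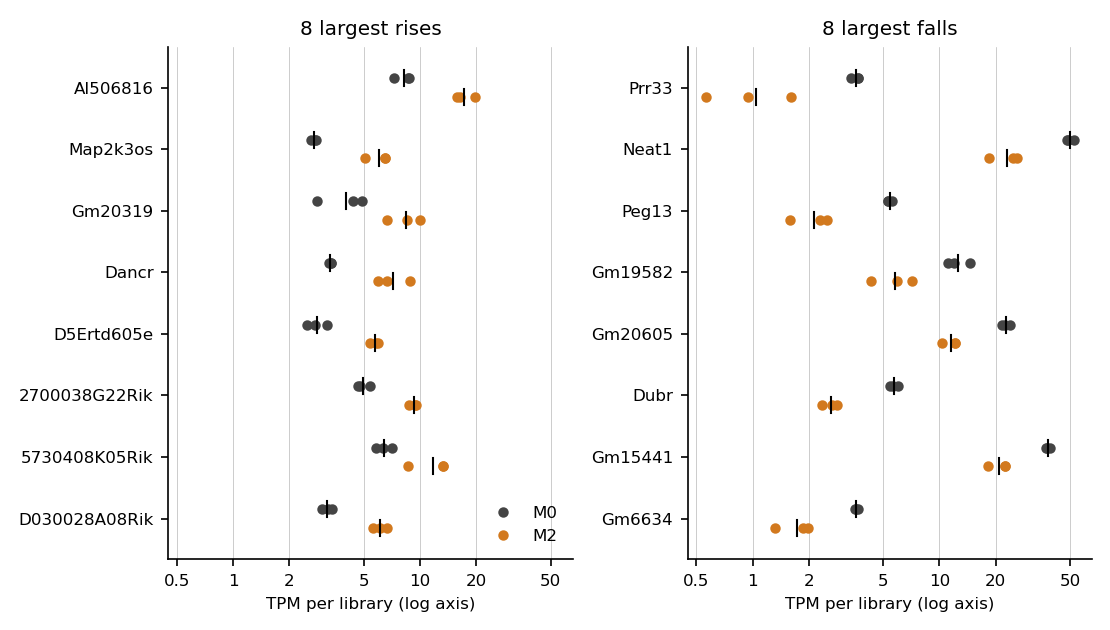
TPM per library (log axis) for the 8 largest rises and the 8 largest falls by log2 fold change among called genes whose groups do not overlap; dots are libraries, grey for M0 and orange for M2, and black ticks are means of 3. Within each gene the groups are apart by construction, with M2 of Prr33 spread from 0.564 to 1.61 TPM and M0 of Dancr within 3.25 to 3.34 TPM.

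Beyond the 8 largest changes in each direction, 31 genes rose, with log2 fold changes of 0.25 to 0.70 and a median of 0.49, and 39 fell, with values of -0.75 to -0.26 and a median of -0.50. Of the 31, 30 had groups that did not overlap, 15 had a mean of at least 10 TPM and 13 overlapped no other model. All 39 that fell had separate groups, 8 had a mean of at least 10 TPM and 14 overlapped no other model.

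Most of the set lies on or near coding genes. Of the 218 models, 120 overlap a coding model on the opposite strand and 12 on the same strand, 88 overlap no coding model, and 74 overlap no model at all. Exons could be compared for 184 genes through GENCODE: 102 share exonic bases with a coding exon of the opposite strand and 11 with one of the same strand. In 12, at least 50% of the exonic bases lie in coding exons of either strand. The nearest tested coding start lay within 1000 bases for 105 genes, 50 of them transcribed away from it. Of the 39 genes that rose, that neighbour rose for 18, fell for 3 and was not called for 18. Of the 47 that fell, it fell for 25, rose for 2 and was not called for 20. Over all tested protein-coding genes, 20.5% were called higher and 24.3% lower. Across the 218 genes the log2 fold changes of gene and neighbour correlated at Pearson r = 0.51 and Spearman rho = 0.46, values which share the same 6 libraries and, where models overlap, the same reads. Where the starts lay within 1000 bases and no model overlapped, r was 0.25 (n = 28). Of those 28 genes, 3 rose with their neighbour, 2 fell with it and 2 rose while it fell. For the 50 genes transcribed away from a start within 1000 bases, r was 0.17. Over all 105 genes with starts within 1000 bases, overlapping models included, r was 0.505. Where the starts lay over 1000 bases apart, overlapping models again included, it was 0.52 (n = 113). Among the 74 genes free of any overlap, 16 rose and 16 fell, a share of 21.6% each.

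**Figure D4:**
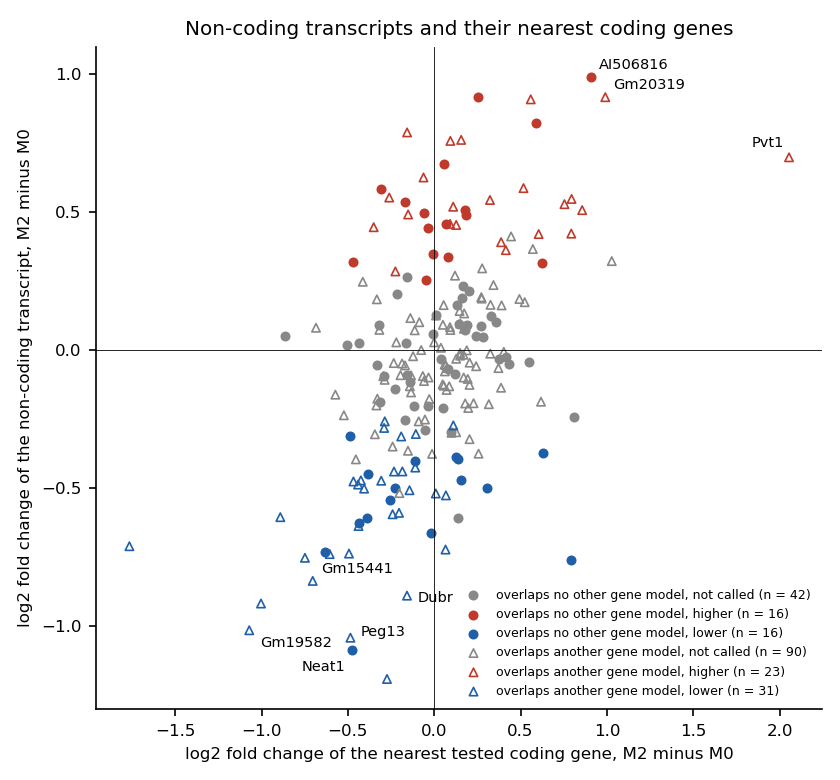
Log2 fold change, M2 minus M0, of each of the 218 long non-coding genes (y axis) against that of the coding gene with the nearest start (x axis); filled circles overlap no other gene model, open triangles do, and colours give the call of the long non-coding gene. Pvt1 lies at the far right, with Myc as its neighbour, Gm20319 and AI506816 lie at the upper right, and Gm19582 and Gm15441 lie at the lower left with Dgkd and Txnip.

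Promoters of 168 genes were found in the RefSeq table (GRCm38.p6). They held a median of 17 CpG per 300 bases, against 7 over all 32851 promoters, whether their genes were expressed here or not. The set was chosen for expression, and promoters of expressed genes alone were not compared, for CpG or for the motifs below. Short motifs were searched in these windows on both strands. The STAT6 motif, TTC and GAA with 4 bases of any kind between, for the factor that IL-4 activates, was in 4 of 168 windows or 2.38%, beside 6.95% of all promoters. Of those 4 genes 2 rose, Gm44505 and Btbd19, and 1 fell, 9530082P21Rik. The AP-1 motif TGANTCA was in 6.55% (7.81% of all), the PU.1 motif GAGGAAGT in 2.98% (3.20%), the NF-kappaB motif (GGGA and CC with 4 bases between) in 20.8% (20.7%), the E-box CACGTG in 11.9% (7.15%), and the D-box TTATGTAA, read by E4BP4, in none (0.938%). Of the 168 genes, 29 rose and 34 fell. Of the 20 with the E-box, 1 rose and 2 fell. Of the 11 with the AP-1 motif, 2 rose and 3 fell, and of the 5 with the PU.1 motif, 0 rose and 1 fell. A match is a description of the letters and no site. Windows of 2 genes among the largest changes are shown, with the letters of each match in capitals: the E-box in 5730408K05Rik, which rose, and the AP-1 and PU.1 motifs in Gm6634, which fell. They lie at chr19:8888721-8889020 (minus) and chr3:70807242-70807541 (minus):
5730408K05Rik: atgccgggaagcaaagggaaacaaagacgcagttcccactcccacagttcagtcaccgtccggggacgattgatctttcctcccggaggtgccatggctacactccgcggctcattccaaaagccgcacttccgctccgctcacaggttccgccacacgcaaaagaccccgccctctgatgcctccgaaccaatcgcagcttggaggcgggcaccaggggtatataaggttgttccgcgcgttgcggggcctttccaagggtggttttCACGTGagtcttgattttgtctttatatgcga
Gm6634: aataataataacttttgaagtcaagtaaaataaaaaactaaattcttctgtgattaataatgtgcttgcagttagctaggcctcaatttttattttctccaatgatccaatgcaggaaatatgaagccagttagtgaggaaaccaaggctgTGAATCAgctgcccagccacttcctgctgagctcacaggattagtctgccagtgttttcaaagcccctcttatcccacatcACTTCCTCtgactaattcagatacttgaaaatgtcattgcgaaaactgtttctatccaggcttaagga

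In all, 5 of the 218 genes contain an annotated microRNA hairpin on their strand. LOC110008574, at chr3:127545089-127546901 on the plus strand, is the host of the miR-302/367 cluster, known from pluripotent cells. Its spliced model of 324 bases measured 9.61, 6.72 and 10.9 TPM in M0 and 10.5, 13.1 and 13.1 TPM in M2. The groups overlapped and the log2 fold change was 0.41 (SE 0.16, limma, adjusted p = 0.0617). The model lies inside Larp7 on the other strand, which rose from 32.4 to 44.8 TPM, and the part of Larp7 reads in this row was not tested. Mature miRNAs of this cluster and of Ftx are shown from RefSeq (GRCm38.p6) because the hosts are what poly(A) RNA can see of them, with the seed, bases 2 to 8, in capitals:
mmu-miR-302b-3p: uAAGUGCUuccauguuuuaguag
mmu-miR-302d-3p: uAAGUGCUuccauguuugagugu
mmu-miR-302c-3p: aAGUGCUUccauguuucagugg
mmu-miR-367-3p: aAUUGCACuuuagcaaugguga
mmu-miR-374b-5p: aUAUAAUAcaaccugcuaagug
mmu-miR-421-5p: cUCAUUAAauguuuguugaau
The first pair shares the seed AAGUGCU, the third has the same letters shifted by a base, and the others differ. The miRNAs themselves were not measured.

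Several abundant rows are not clear measures of a long non-coding RNA. Eyelinc18, the most abundant at chr13:97751112-97760963, measured 369, 343 and 356 TPM in M0 and 354, 306 and 387 TPM in M2, with overlapping groups (log2 fold change -0.03, limma, adjusted p = 0.777). Over 50.5% of its GENCODE transcript it matches the messenger of Rps18, a ribosomal protein gene, with 542 aligned columns at 99.1% identity. Rps18 was measured at 701 and 767 TPM and was not called, and the part of its reads in Eyelinc18 was not tested. Of the 184 transcripts searched, 23 matched another locus at 95% identity over at least 100 bases, and in 3, Norad, Eyelinc18 and AI506816, at least 50% of the bases did. Gm44505 runs along Zfp91 and Cntf on their strand. It measured 42.6, 46.8 and 48.7 TPM in M0 and 59.6, 63.0 and 55.7 TPM in M2 (log2 fold change 0.36, limma, adjusted p = 0.00353), while Zfp91 rose from 62.5 to 83.8 TPM. Gm20716, whose exonic bases lie entirely (100%) in exons of Adnp and Dpm1, stayed between 47.2 and 50.3 TPM in all 6 libraries. 6430706D22Rik shares its strand with Hjurp and A730008H23Rik and was measured at 73.6 ± 1.64 and 64.3 ± 8.83 TPM (SD, n = 3, adjusted p = 0.111 in limma). 1810058I24Rik and BC029722, with Mtln, 0610012G03Rik, Btbd19 and Gm10033, are protein coding in RefSeq though the deposited table lists them as ncRNA. GENCODE types 15 genes of the set as coding, Gm20605 and Gm20716 among them, 4 of which RefSeq types so too. In all, 17 of the 218 are coding in 1 annotation or both, and of these 4 rose and 2 fell. 1810058I24Rik was at 46.8 ± 5.42 and 55.0 ± 3.98 TPM (SD, n = 3), not called with all libraries (limma, adjusted p = 0.0627) and called without M0 replicate 1 (adjusted p = 0.0189, between 0.0189 and 0.218 over the alternatives). BC029722 was at 46.0 ± 2.49 and 49.0 ± 1.81 TPM and was not called.

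Among genes that trim and degrade such RNAs, those of the exosome and of tRNA-like 3′ end processing were called higher more often than they were called lower. Of 18 tested genes of the nuclear exosome and its adaptors, which degrade promoter-proximal and unstable nuclear RNA, 10 rose and 1 fell (55.6% and 5.56%, beside 20.1% and 23.7% of all tested genes), with a median log2 fold change of 0.24, where that of all tested genes was -0.03. The exosome subunit gene Exosc6 rose from 50.7 ± 4.32 to 89.6 ± 9.65 TPM and Exosc2 from 33.8 ± 1.32 to 52.0 ± 3.90 TPM (SD, n = 3). Of the 10 genes of tRNA-like 3′ end processing, the RNase P and RNase Z route that frees the ends of Malat1 and Neat1, 7 rose (70.0%), with a median log2 fold change of 0.43. Rpp40 rose from 6.39 ± 0.294 to 11.3 ± 0.314 TPM and Rpp38 from 10.7 ± 1.47 to 18.0 ± 1.82 TPM. Of 10 genes of nonsense-mediated decay, which removes many spliced long non-coding RNAs in the cytoplasm, 3 rose, Upf3a, Upf3b and Smg5 (20.1% of all tested genes rose), and the median was 0.09. The calls of Upf3b and Smg5 were weak: their adjusted p in limma was 0.0349 and 0.0447 and reached 0.116 and 0.137 over the alternatives, with calls in 8 and 6 of 12, and the groups of Smg5 overlapped.

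By symbol, 113 of the 218 genes carry Rik names, 43 Gm names, 21 names of opposite strand or antisense genes and 41 other names. Of the 21 named as opposite strand or antisense, 2 rose (Map2k3os and Bach2os) and 3 fell (Ptgs2os2, Sp3os and Tomm6os), or 23.8% against 43.7% of all tested genes. Of the 43 with Gm names 9 rose and 12 fell, and of the 113 with Rik names 17 rose and 22 fell. Among the other names, 11 rose and 10 fell. One of them, chosen after its values were seen, is Gt(ROSA)26Sor, the transcript of the locus used worldwide to insert transgenes in mice. It measured 16.7, 15.7 and 14.2 TPM in M0 and 20.4, 23.6 and 26.1 TPM in M2. The groups did not overlap (log2 fold change 0.55, limma, adjusted p = 0.00218).

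At the edge of the rule, the third highest library was at 3.03 TPM for Gm4013, 3.04 TPM for 3110056K07Rik and 3.11 TPM for Gm5106, just inside, and at 2.995 TPM for Gm10814 and 2.96 TPM for both 6330415G19Rik and E030011O05Rik, just outside. By length, LOC110008574 at 324 bases and A730063M14Rik at 327 were just inside, and 2500002B13Rik at 295, Rab26os at 293 and Hotairm1 at 251 bases just outside. Of the 2257 rows of at least 300 bases that stayed under the TPM threshold, 777 had no read in any library. The filter for testing was passed by 188, of which 5 rose and 28 fell. Among all tested genes, 20.1% were called higher and 23.7% lower. The 188 were kept out by their TPM in the same libraries, so these counts are a description. Whether weak long non-coding genes lean towards falls was not tested.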

How the data were processed

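Poly(A) RNA of 6 RAW264.7 libraries was compared, M0 against M2, 3 per group by the sample titles. Of tools, the submitters' processing notes list HOMER 4.11.1, STAR 2.7.5a, bcl2fastq and DESeq2, with mm10 as the build, and give them no order or role. Per the file headers, the authors deposited TPM per gene with the length of 1 transcript model. The second deposited table holds the authors' values per library, read as log2 from their range, with the authors' log2 fold change and their p-value and adjusted p-value. The sources used here do not tell how reads on several loci were counted. The kit named in the labels does not mark strand.

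TPM times length fell on whole multiples of 1 read in each library (100.0% of values fine enough to tell, within 0.1 read), which gave the recovered reads. Genes with at least 1 TPM in at least 3 libraries were fitted on log2(TPM + 1) by group with limma 3.58.1 in R 4.3.3 (variance trend, two-sided, Benjamini-Hochberg over all 11202 genes, called under 0.05). Fold changes on this scale understate those of low genes. No library was a duplicate: recovered reads of same-group pairs gave a chi-square of at least 2.26 for each degree of freedom. The fit was tested on simulated data, where changes of 2-fold or more were mostly recovered and the only smaller change tried was mostly missed. The share of false calls lay above the nominal level. Far fewer genes changed in the simulation than were called here, so these shares may not carry over to this fit.

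Genes named are the 10 most abundant, the 8 largest rises and falls among called genes with separate groups, a list of known roles, the genes at the thresholds, and up to 4 per list of partner proteins with the lowest adjusted p. The genes, lists and motifs were chosen with earlier results of these data known. Positions come from the deposited table (mm10), exons and transcripts from GENCODE vM21 (GRCm38), and promoters, types and miRNAs from RefSeq. Copies at other loci were searched among GENCODE vM21 transcripts with blastn 2.17.0, after the values had been seen. The genome outside these transcripts was not searched. Python 3.11.15, numpy 2.4.6, pandas 2.3.3 and matplotlib 3.10.9 served for tables and plots. Some genes and motifs are not reported here.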

Additional observations from a re-analysis of the deposited data

How the results depend on the processing

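Tried were a pseudocount of 0.1, no filter, median-ratio scaling, limma-voom on recovered reads, limma on the authors' deposited values, a replicate block, each library left out, and other definitions of the set. In limma, 60 of the 86 called genes were called under every alternative that held them, 28 higher and 32 lower. Restricting the set to the 74 genes that overlap no other model left 16 higher, 16 lower and 1 with a log2 change of at least 1. That last count of 4 became 11 with a pseudocount of 0.1 and 11 with limma-voom, 0 in limma on the authors' values per library (72 of the called genes were called there too; the authors' own fold changes put 9 genes past that size), and 2 among the genes that reached the threshold in both groups, an alternative chosen after seeing the data. Leaving out 1 library at a time gave 30 to 50 genes higher, 37 to 54 lower, 3 to 6 with a log2 change of at least 1, and 3556 to 5694 calls over all genes. Of 454 values of 38 named genes, 430 kept their direction and side of the threshold, 12 gained a call, 3 lost it and 9 changed sign, none of them of a gene called with all libraries. The sign changes were Eyelinc18 at 0.059 without M2 replicate 2 (range over libraries left out from -0.11), Xist at 0.0065 with the authors' values, 0.02 without M0 replicate 2 and 0.24 without M2 replicate 3 (from -0.20), Tsix at 0.11 and Oip5os1 at 0.0191 without M2 replicate 3 (from -0.51 and -0.18), 2900097C17Rik at -0.0569 without M0 replicate 1 (up to 0.18), and Morrbid at 0.13 with the authors' values and 0.11 without M2 replicate 2 (from -0.23). Samples that share a replicate number share only that number: their deviations from the group means correlated at -0.033, 0.211 and 0.029. With the replicate block, 38 genes of the set were higher, 50 lower and 4 changed by a log2 of at least 1, among 4870 calls over all genes. In the authors' deposited table, 40 of 192 matched genes of the set were higher and 31 lower at an adjusted p-value under 0.05.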
